A study of Mus musculus with 12 samples.

Results

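Secreted WNT ligands of the embryonic kidney were followed in cultured mouse nephron progenitor cells (NPCs). The 8 members were taken by gene symbol (Wnt2b, Wnt4, Wnt5a, Wnt5b, Wnt6, Wnt7b, Wnt9b and Wnt11), and each was found once among the 54184 genes of the deposited tables, beside 11 other WNT ligand genes. Wild-type NPCs were obtained from E13.5 kidneys after mating CD1 females with males that did or did not carry Six2GFP, were purified with magnetic beads and were passaged before use. All groups were harvested after 24 h. The NPEM group stayed in nephron progenitor expansion medium and the DMEM group was a medium control. The CHIR DMEM group received 3.5 µM CHIR99021, an inhibitor of the kinase GSK3, and the YN1 DMEM group received 20 µM of the PFKFB3 inhibitor YN1, which slows glycolysis, each in a differentiation medium of DMEM, serum replacement and FGF2. The supplements of the DMEM control and the composition of NPEM are not given in the sources used here, so a difference from NPEM or DMEM cannot be told apart from other differences between the media. Each group had 3 libraries, numbered 1 to 3, and 12 libraries were read in all.

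WNT proteins are lipid-modified in the secretory pathway by the acyltransferase Porcn, carried to the cell surface by Wls, and bound there by Frizzled receptors with co-receptors such as Lrp5 and Lrp6. In the canonical branch this stops GSK3 from marking β-catenin for destruction, and β-catenin then acts with TCF/LEF proteins on target genes. In the non-canonical branch, for which Wnt5a and Wnt11 are best known, receptors such as Ror2 act on cell shape and movement. In the mouse kidney, Wnt9b from the ureteric bud epithelium starts nephron formation, Wnt4 made by the induced mesenchyme carries it on to the renal vesicle, Wnt11 marks the bud tips, Wnt7b is made by the collecting duct stalk, and Wnt2b is a ligand of the stroma.

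Levels were given as TPM (transcript abundance scaled to a fixed total in each library), which correct for transcript length and keep no read count, so the depth behind each value is unknown. A library held 13754 to 14569 genes at 1 TPM or more. Differences are LogFC, on the scale log2(TPM + 1). Limma gave each a standard error (SE) and, two-sided, a p adjusted over all genes tested, and a gene was called at an adjusted p under 0.05. Some counts are also given at an unadjusted p under 0.05. The share of all genes at that threshold was not counted, so those counts have no background beside them and are no calls. Libraries that shared a replicate number deviated together in 18 of 18 pairs, so each result is also given with the replicate number as a block where that changed the call. Over all genes, the median LogFC was -0.15 in CHIR DMEM against DMEM and -0.16 in CHIR DMEM against YN1 DMEM, and quantile normalization brought both to 0.00; it lowered the median from 0.09 to -0.02 in DMEM and in YN1 DMEM against NPEM, so small differences are read against these shifts. Six2, the defining factor of the progenitors, lay at 27.2 to 175 TPM over the 12 libraries, and 8 or 9 of 9 progenitor markers reached 1 TPM in each library. Of 5 endothelial markers, Pecam1, Cdh5 and Tek were below 1 TPM in every library, while Emcn lay at 13.9 to 235 TPM and Kdr at 0.176 to 12.3 TPM, highest in NPEM. Of 9 renal vesicle markers Lhx1 was below 1 TPM in every library, while Pax8 (1.68 to 22.6 TPM) and Jag1 (3.33 to 29.0 TPM) were above it in all 12. Fgf8 reached 1 TPM only in CHIR DMEM replicate 2 (1.67 TPM). Ccnd1, Bmp2, Dkk1, Dll1 and Cdh4 were below it in some libraries. The list summed to 35.5 to 171 TPM, but single genes could carry the sum. Dkk1 held 144 of 171 TPM in NPEM replicate 2, and Ccnd1 held 92.7 of 118 TPM in CHIR DMEM replicate 1. Replicate 3 of every group stood apart in epithelial genes, whose values are given with Wnt7b. In bulk RNA, fewer cells of a type and less RNA per cell cannot be told apart.

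Only 3 of the 8 ligands, Wnt5a, Wnt5b and Wnt11, were at 1 TPM or more in all 12 libraries. Wnt6 and Wnt9b were below 1 TPM in all 12. Wnt2b and Wnt4 were below 1 TPM in the 3 NPEM libraries and above it in the other 9, and Wnt7b was below 1 TPM in 8 libraries. In NPEM the order of mean levels was Wnt5a (62.6 TPM), Wnt5b (44.0 TPM) and Wnt11 (25.4 TPM), whose libraries overlapped from one to the next, and then a gap to the other 5, all with means below 1 TPM. In DMEM the order was Wnt5a (58.9 TPM), Wnt2b (24.4 TPM), Wnt5b (18.9 TPM), Wnt11 (7.13 TPM) and Wnt4 (6.20 TPM). There the libraries of Wnt5a lay above those of Wnt2b and those of Wnt5b above those of Wnt11, while Wnt2b overlapped Wnt5b and Wnt11 overlapped Wnt4. In YN1 DMEM it was Wnt5a (57.5 TPM), Wnt2b (28.5 TPM), Wnt5b (14.0 TPM), Wnt4 (8.23 TPM) and Wnt11 (6.62 TPM), with overlap of each neighbouring pair from Wnt2b down to Wnt11. With CHIR the order differed: Wnt4 came first (100.2 TPM), then Wnt5a (43.4 TPM), Wnt5b (25.9 TPM), Wnt11 (7.85 TPM) and Wnt2b (2.99 TPM), and Wnt4 overlapped Wnt5a. At that mean, Wnt4 exceeded 87.2% of the 14207 genes with a group mean of at least 1 TPM in CHIR DMEM, against 27.0% in DMEM.

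**Figure D1:**
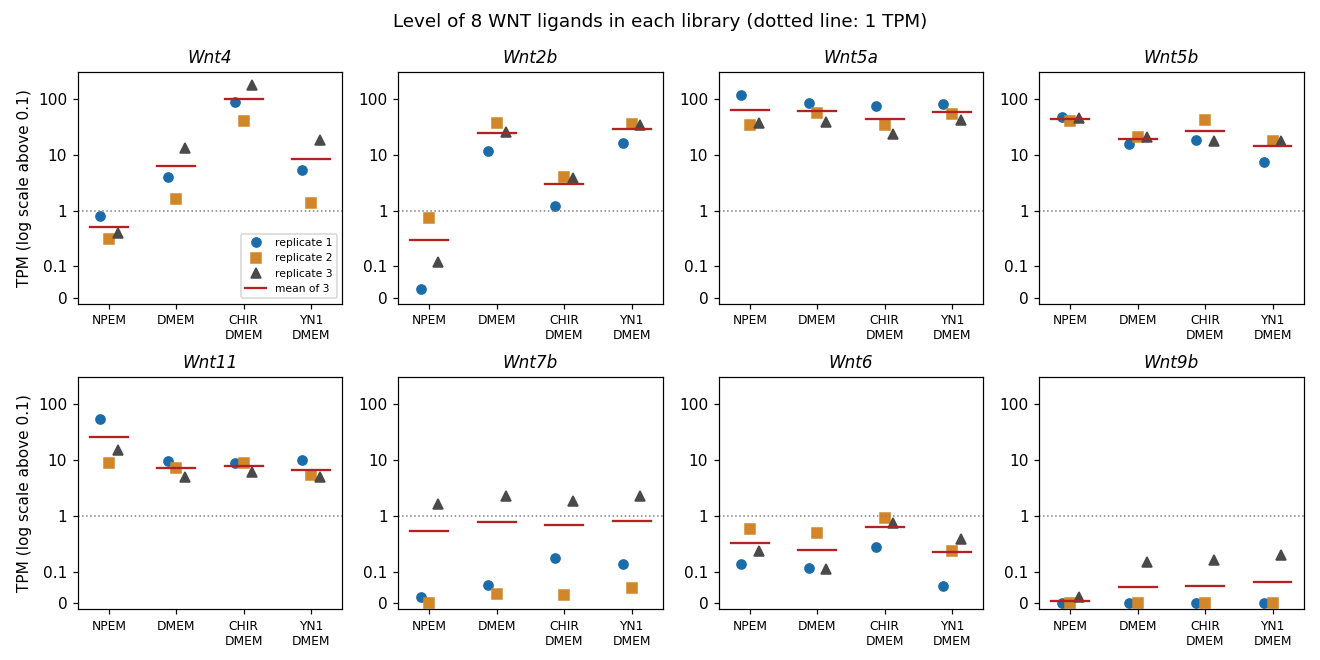
TPM of each of the 8 WNT ligands in each library (y axis, linear up to 0.1 and logarithmic above) in the 4 groups (x axis); symbols mark the replicate number, red bars the mean of 3 libraries and the dotted line 1 TPM. Wnt4 was highest in CHIR DMEM, Wnt2b in DMEM and YN1 DMEM, and Wnt7b passed 1 TPM in replicate 3 of each group and nowhere else.

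Wnt4 is the ligand that induced mesenchyme makes as it turns into epithelium. In NPEM replicates 1 to 3 it lay at 0.799, 0.306 and 0.399 TPM. In DMEM it lay at 3.99, 1.60 and 13.02 TPM, and in YN1 DMEM at 5.30, 1.36 and 18.0 TPM. In CHIR DMEM it lay at 85.8, 39.1 and 176 TPM. The CHIR libraries thus lay above those of each other group, DMEM and YN1 DMEM overlapped, and both lay above NPEM. Within a replicate number, CHIR DMEM stood 21.5, 24.5 and 13.48 times above DMEM and 107, 128 and 440 times above NPEM, the second set over values below 1 TPM.

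Against NPEM, Wnt4 rose with CHIR (LogFC = 5.84, SE 0.51, adjusted p = 0.0123, n = 3 in each group), the second highest LogFC of 14035 genes tested. It was the 1 ligand called there of 5 tested, where limma called 0.378% of all genes, 0.171% of them as higher (1.66% in either direction with the block). An unadjusted p under 0.05 was reached by 3 ligands, 2 of them higher. Wnt4 passed the filter of 1 TPM in 3 of 6 libraries through its CHIR libraries alone, and without that filter its adjusted p was 0.0790. The adjusted p was 0.0719 when NPEM replicate 2 was left out, 0.0807 without NPEM replicate 3, 0.102 without replicate 1 of both groups and 0.272 without replicate 3 of both groups, with LogFC from 5.27 to 6.38 over all libraries left out. Against DMEM, LogFC was 3.91 (SE 0.74, adjusted p = 0.0827), and with the replicate block Wnt4 was called (SE 0.14, adjusted p = 0.00887). In that comparison limma called 0.252% of all genes and 12.8% with the block, 3.36% as higher and 9.44% as lower. Against YN1 DMEM, LogFC was 3.70 (SE 0.84, adjusted p = 0.190), and with the block Wnt4 was called too (SE 0.20, adjusted p = 0.0236). Limma called 0.00701% of genes there and 1.56% with the block, 0.456% as higher and 1.11% as lower. Without the block 0 ligands were called in both of these comparisons, and in each an unadjusted p under 0.05 was reached by 2, Wnt4 and Wnt2b. DMEM against NPEM gave LogFC = 1.93 (SE 0.59, adjusted p = 0.207, with the block 0.0813) and YN1 DMEM against NPEM gave 2.14 (SE 0.71, adjusted p = 0.246, with the block 0.125).

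Progenitor markers were read beside Wnt4. The summed level of the 9 progenitor markers was 490 to 819 TPM in NPEM, 308 to 715 TPM in DMEM, 224 to 689 TPM in YN1 DMEM and 127 to 438 TPM in CHIR DMEM. With the replicate block, 4 of these 9 markers were called lower in CHIR DMEM against DMEM, beside 9.44% of all genes. Without it 0 were called, beside 0.252% of all genes in either direction. At an unadjusted p under 0.05, 3 were lower, a count with no share of all genes beside it. Wnt4 was highest in replicate 3 in 3 of the 4 groups, the replicate number with high epithelial genes. Without replicate 3 of both groups, CHIR DMEM against DMEM gave LogFC = 4.04 (SE 0.54). The part of the progenitor markers and of the epithelial genes in the result was not tested.

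Wnt2b, which signals through β-catenin and marks stroma in the mouse kidney, was nearly absent from NPEM, at 0.0276, 0.736 and 0.120 TPM in replicates 1 to 3. In DMEM it lay at 11.4, 36.3 and 25.5 TPM, and in YN1 DMEM at 15.8, 35.8 and 33.8 TPM. In CHIR DMEM it lay at 1.20, 3.97 and 3.80 TPM. The CHIR libraries fell between the groups and overlapped none of them, and replicate 1 was the lowest in each of the 4 groups. Within a replicate number, CHIR DMEM held 0.105, 0.109 and 0.149 times the DMEM level.

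Wnt2b rose in DMEM against NPEM (LogFC = 4.20, SE 0.45, adjusted p = 0.0244) and in YN1 DMEM against NPEM (LogFC = 4.47, SE 0.39, adjusted p = 0.0189), with the seventh highest LogFC of 14343 genes and the sixth of 14323. It was the 1 ligand of 5 tested that limma called in each, where 0.446% and 0.230% of all genes were called, 0.342% and 0.154% as higher (6.50% and 0.754% in either direction with the block). An unadjusted p under 0.05 was reached by 3 ligands in each, 2 of them higher. Wnt2b too passed the filter through the libraries without NPEM alone, and without the filter the adjusted p was 0.124 and 0.193. In DMEM against NPEM the adjusted p was 0.0568 without DMEM replicate 2 and 0.107 without DMEM replicate 3. Leaving out NPEM replicate 1, 2 or 3 gave 0.0643, 0.0828 and 0.0971, and with replicate 1, 2 or 3 of both groups left out it was 0.0686, 0.201 and 0.354. In YN1 DMEM against NPEM it was 0.115 without YN1 DMEM replicate 3, then 0.0774, 0.0596 and 0.0929 when NPEM replicate 1, 2 or 3 was left out, and 0.115, 0.106 and 0.347 without replicate 1, 2 or 3 of both groups. LogFC stayed between 3.85 and 4.64 in the first and between 4.22 and 4.83 in the second over these fits. CHIR DMEM against DMEM gave LogFC = -2.62 (SE 0.50, adjusted p = 0.0839), and with the replicate block Wnt2b was called lower (SE 0.17, adjusted p = 0.0124). CHIR DMEM against YN1 DMEM gave -2.89 (SE 0.45, adjusted p = 0.121) and was called with the block (SE 0.16, adjusted p = 0.0236). Against NPEM, CHIR gave 1.57 (SE 0.41, adjusted p = 0.187, with the block 0.0771).

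Markers of the interstitial stroma were read beside Wnt2b. Of 12 stromal markers tested in DMEM against NPEM, 1 was called higher and 0 lower, beside 0.446% of all genes in either direction. With the block 4 were called higher and 1 lower, beside 6.50% of all genes. LogFC was above 0 for 8 and below 0 for 4. The gene called without the block was the homeobox gene Meis2 (LogFC = 1.66, SE 0.15, adjusted p = 0.0122), and the median LogFC of the 12 was 0.65 beside 0.09 over all genes. Meis2 was also called in YN1 DMEM against NPEM (LogFC = 1.55, SE 0.19, adjusted p = 0.0423). Without the filter the adjusted p of Meis2 was 0.0888 and 0.202. Foxd1, a transcription factor of the stromal progenitors, lay at 0.0444, 0 and 0.0310 TPM in NPEM, at 1.88, 3.01 and 4.20 TPM in DMEM, at 1.42, 3.20 and 3.52 TPM in YN1 DMEM and at 0.897, 0.270 and 1.10 TPM in CHIR DMEM. Its DMEM libraries lay above those of NPEM and of CHIR DMEM. Foxd1 was 1 of the 4 called higher with the block in DMEM against NPEM, and it passed the filter through its DMEM libraries alone. Other members had LogFC below 0 in DMEM against NPEM without being called, among them Crabp1 (-1.79, adjusted p = 0.322, and called lower with the block), Penk (-0.74, adjusted p = 0.830) and Tcf21 (-0.54, adjusted p = 0.423). The summed level of the 12 markers was 1000.1 to 2646 TPM in NPEM, 1852 to 4194 TPM in DMEM, 1425 to 3449 TPM in CHIR DMEM and 1769 to 3679 TPM in YN1 DMEM, so that the groups overlapped. The part of stromal cells in the Wnt2b level was not tested.

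**Figure D2:**
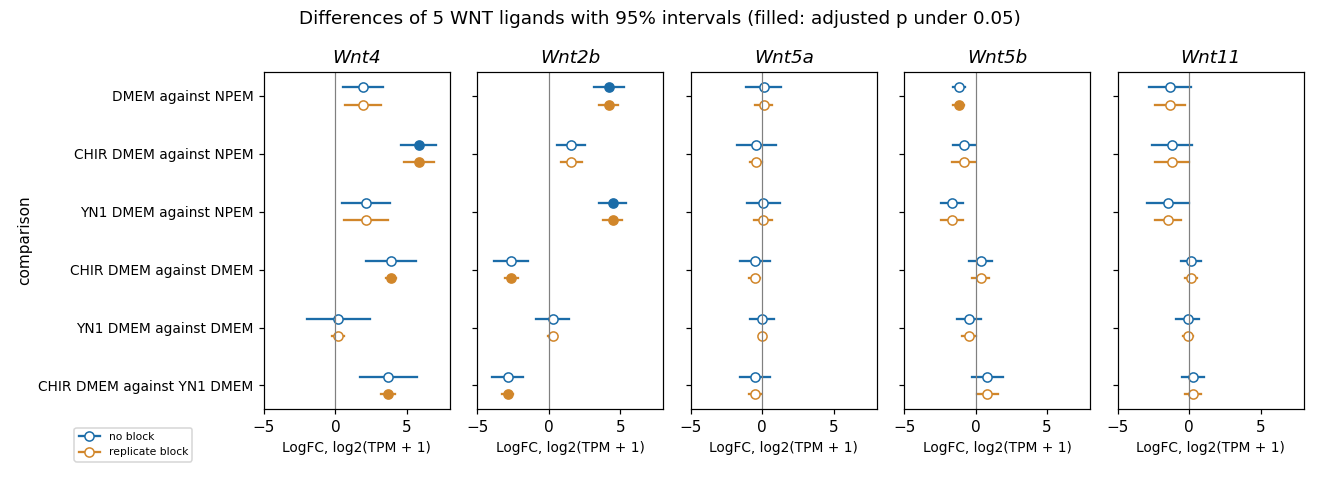
LogFC on the log2(TPM + 1) scale (x axis) of the 5 WNT ligands tested in the 6 comparisons (y axis), with 95% intervals, without a block (blue) and with the replicate number as a block (orange); filled points passed an adjusted p under 0.05. Wnt4 and Wnt2b lay on opposite sides of 0 in CHIR DMEM against DMEM, at 3.91 and -2.62.

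For the 2 ligands that were called, and for Wnt11, the promoter is shown from the RefSeq annotation on GRCm38 (mm10, one of the builds named in the submitters' processing notes), as 250 bases before to 50 after the annotated start of transcription, 5′ to 3′ on the strand of the gene. RefSeq promoters were found for 6 of the 8 ligands, 9 in all; Wnt5a and Wnt7b had none in the table used. Each was searched on both strands for the TCF/LEF words AACAAAG or else ATCAAAG or else TACAAAG or else TTCAAAG, which 16.9% of 32851 mouse promoters of this length held, for the TATA word TATAAA (13.6%) and for CCAAT (37.4%). Matches are in capitals. None of these words overlapped another in the sequences shown. Wnt4 lies at chr4:137277635-137299501 on the plus strand and its promoter, at chr4:137277385-137277684, held none of them. Wnt2b lies at chr3:104944805-104961709 on the minus strand and its promoter, at chr3:104961660-104961959, held CCAAT 64 to 60 bases before the start. Wnt11, which was not called, has 2 promoters. The first, at chr7:98834862-98835161 on the plus strand, held ATCAAAG 51 to 45 bases before the start and TATAAA 29 to 24 bases before it. The second held none of these words and is not shown. The third of 3 Wnt5b promoters held ATCAAAG on the other strand, 71 to 65 bases before the start. GC content was 84.3% for Wnt4, 79.7% for Wnt2b and 71.3% for the first Wnt11 promoter (59.3% for its second), and the median promoter had 52.7%. The words are a description of these windows and name no bound site. On the same build, Wnt5a lies at chr14:28504543-28527448, Wnt5b at chr6:119432531-119544824, Wnt6 at chr1:74754342-74785322, Wnt7b at chr15:85535437-85581821, Wnt9b at chr11:103727362-103775272 and Wnt11 at chr7:98835084-98854747.
Wnt4 promoter: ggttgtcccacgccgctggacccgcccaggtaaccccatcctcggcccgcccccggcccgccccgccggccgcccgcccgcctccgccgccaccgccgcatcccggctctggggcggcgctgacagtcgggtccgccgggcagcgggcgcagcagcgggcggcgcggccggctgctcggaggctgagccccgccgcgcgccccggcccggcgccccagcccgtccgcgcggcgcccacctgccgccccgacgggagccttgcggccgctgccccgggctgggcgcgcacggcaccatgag
Wnt2b promoter: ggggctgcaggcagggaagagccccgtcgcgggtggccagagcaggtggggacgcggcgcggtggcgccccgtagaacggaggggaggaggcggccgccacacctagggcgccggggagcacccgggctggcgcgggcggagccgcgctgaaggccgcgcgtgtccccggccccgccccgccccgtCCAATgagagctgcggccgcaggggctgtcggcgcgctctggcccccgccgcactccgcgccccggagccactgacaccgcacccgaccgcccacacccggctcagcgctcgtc
Wnt11 promoter: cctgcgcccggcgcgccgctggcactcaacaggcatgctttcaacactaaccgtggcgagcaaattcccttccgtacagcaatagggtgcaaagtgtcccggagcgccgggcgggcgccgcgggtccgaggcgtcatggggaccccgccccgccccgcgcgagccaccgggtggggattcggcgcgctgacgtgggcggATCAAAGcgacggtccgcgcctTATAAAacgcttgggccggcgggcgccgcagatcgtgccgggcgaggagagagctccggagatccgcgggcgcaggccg

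Wnt5a, which acts mainly outside the β-catenin branch, was the most abundant ligand in 7 of the 12 libraries. In NPEM it lay at 117, 33.3 and 37.2 TPM, in DMEM at 82.5, 55.5 and 38.7 TPM, in CHIR DMEM at 73.3, 33.2 and 23.6 TPM and in YN1 DMEM at 79.1, 52.2 and 41.2 TPM. Replicate 1 was the highest in all 4 groups, and every pair of groups overlapped. No comparison was called with or without the block. CHIR DMEM against DMEM gave LogFC = -0.53 (95% interval -1.60 to 0.54, with the block -0.90 to -0.15 and adjusted p = 0.0736). CHIR DMEM against YN1 DMEM gave -0.51 (-1.55 to 0.53, with the block -0.92 to -0.10 and adjusted p = 0.115). In both, CHIR DMEM was the lower in 3 of 3 replicate numbers. DMEM against NPEM gave 0.09 (-1.12 to 1.30, with the block -0.52 to 0.70).

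Wnt5b, its close relative, lay at 46.7, 40.5 and 44.7 TPM in NPEM and at 15.3, 20.9 and 20.4 TPM in DMEM. In YN1 DMEM it lay at 7.23, 17.6 and 17.2 TPM and in CHIR DMEM at 18.3, 41.7 and 17.7 TPM. The DMEM and YN1 DMEM libraries lay below all NPEM libraries, while CHIR DMEM replicate 2 was within the NPEM range. DMEM against NPEM sat at the threshold without being called (LogFC = -1.19, SE 0.17, adjusted p = 0.05005), and Wnt5b was called lower with the replicate block (SE 0.15, adjusted p = 0.0298) and after quantile normalization (LogFC = -1.28, adjusted p = 0.0440). With the block limma called 2.19% of genes as lower in that comparison. YN1 DMEM against NPEM gave LogFC = -1.67 (SE 0.33, adjusted p = 0.103) and CHIR DMEM against NPEM gave -0.85 (SE 0.33, adjusted p = 0.369). The last was called when CHIR DMEM replicate 2 was left out (LogFC = -1.24, adjusted p = 0.0299).

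Wnt11, a ligand of the ureteric bud tip and of cell movement, lay at 52.7, 8.72 and 14.8 TPM in NPEM. It lay at 9.36, 7.14 and 4.88 TPM in DMEM, at 8.90, 8.69 and 5.96 TPM in CHIR DMEM and at 9.78, 5.25 and 4.83 TPM in YN1 DMEM. The highest library was NPEM replicate 1, and the 3 groups in DMEM overlapped NPEM and each other. Against NPEM, LogFC was -1.35 (SE 0.61) in DMEM, -1.21 (SE 0.60) in CHIR DMEM and -1.46 (SE 0.62) in YN1 DMEM, with adjusted p of 0.355, 0.515 and 0.355. Without NPEM replicate 1, LogFC was -0.65, -0.50 and -0.76 in the same order.

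The YN1 DMEM and DMEM libraries were compared to ask whether the PFKFB3 inhibitor moved any ligand. Limma called 0 of 14500 genes (0%, and 0% with the block) and 0 ligands. The number of ligands with an unadjusted p under 0.05 was 0, and 1 with the block. Wnt4 gave LogFC = 0.21 (95% interval -1.97 to 2.40, with the block -0.21 to 0.63). Wnt2b gave 0.27 (-0.90 to 1.44, with the block -0.03 to 0.57). Wnt5b gave -0.48 (-1.34 to 0.37, with the block -0.95 to -0.01). Wnt11 gave -0.11 (-0.93 to 0.70) and Wnt5a gave -0.02 (-0.84 to 0.80). These intervals without the block leave room for differences of more than 2 on the log2 scale for Wnt4, and the values do not show that the groups were alike.

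The mixture of ligands was described by their summed TPM, which is a level per length and can be added over genes. The 8 ligands summed to 84.1 to 218 TPM in NPEM, 105 to 123 TPM in DMEM, 128 to 229 TPM in CHIR DMEM and 113 to 118 TPM in YN1 DMEM, and held 94.2% to 99.7% of the TPM of all 19 WNT genes. Wnt4 made up 55.1% of the mean sum in CHIR DMEM, 5.32% in DMEM, 7.10% in YN1 DMEM and 0.375% in NPEM. Wnt2b made up 21.0% in DMEM, 24.6% in YN1 DMEM, 1.65% in CHIR DMEM and 0.221% in NPEM. Wnt5a made up 46.8% in NPEM, 50.5% in DMEM, 49.6% in YN1 DMEM and 23.9% in CHIR DMEM. By library, the share of Wnt4 in CHIR DMEM was 45.7%, 30.7% and 76.5%, and in replicate 2 it stood just below that of Wnt5b (32.7%).

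**Figure D3:**
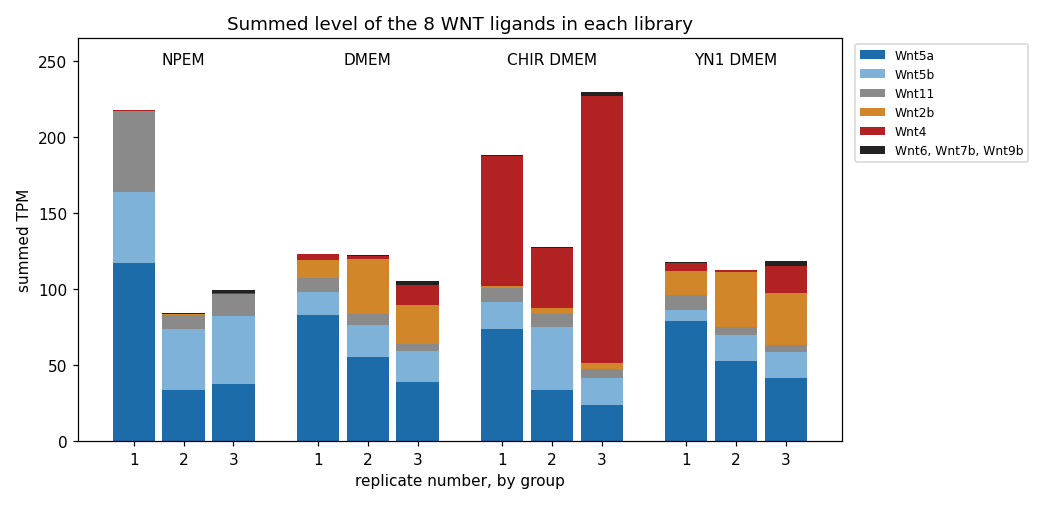
Summed TPM of the 8 WNT ligands (y axis, from 0) in each library (x axis, replicate number by group), with the height of each colour showing 1 ligand or, in black, the sum of Wnt6, Wnt7b and Wnt9b. Wnt4 took 30.7% to 76.5% of the sum in CHIR DMEM, and Wnt2b 9.32% to 31.8% in DMEM and YN1 DMEM.

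The remaining 3 ligands are epithelial ones in the mouse kidney and were low. Wnt7b, the ligand of the collecting duct stalk, lay at 1.62, 2.22, 1.82 and 2.27 TPM in replicate 3 of NPEM, DMEM, CHIR DMEM and YN1 DMEM and at no more than 0.177 TPM in the other 8 libraries. Wnt9b, the inducer made by the ureteric bud, was listed at 0 in those 8 libraries and at 0.0174, 0.150, 0.164 and 0.200 TPM in the same 4. Wnt6 lay between 0.0540 and 0.897 TPM, with the highest value in CHIR DMEM replicate 2. None of the 3 had 1 TPM in 3 of 6 libraries, so none entered a test, and the level of Wnt7b separated replicate 3 from the others and not the groups.

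Several epithelial genes had the same layout as Wnt7b. Krt8 and Krt18, keratins of simple epithelia, lay at 34.7 to 58.3 TPM and 37.8 to 68.1 TPM in replicate 3 of the 4 groups, and at no more than 1.75 and 2.27 TPM in the other 8 libraries. Cdh1, the epithelial cadherin, lay at 7.26 to 15.4 TPM against at most 0.335 TPM, and Epcam at 26.5 to 32.5 TPM against at most 4.59 TPM. Summed over the 11 ureteric bud markers, replicate 3 held 287 to 364 TPM and the other libraries 85.7 to 140 TPM. The 11 did not share one layout. Calb1 was below 1 TPM in all 12 libraries and the receptor Ret lay between 0.0301 and 1.02 TPM, whereas the transcription factors Hoxb7 (14.3 to 29.0 TPM) and Etv5 (46.6 to 109 TPM) were above 1 TPM in all 12 and Gata3 lay at 0.498 to 4.15 TPM. Whether bud cells were present in those libraries was not tested.

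**Figure D4:**
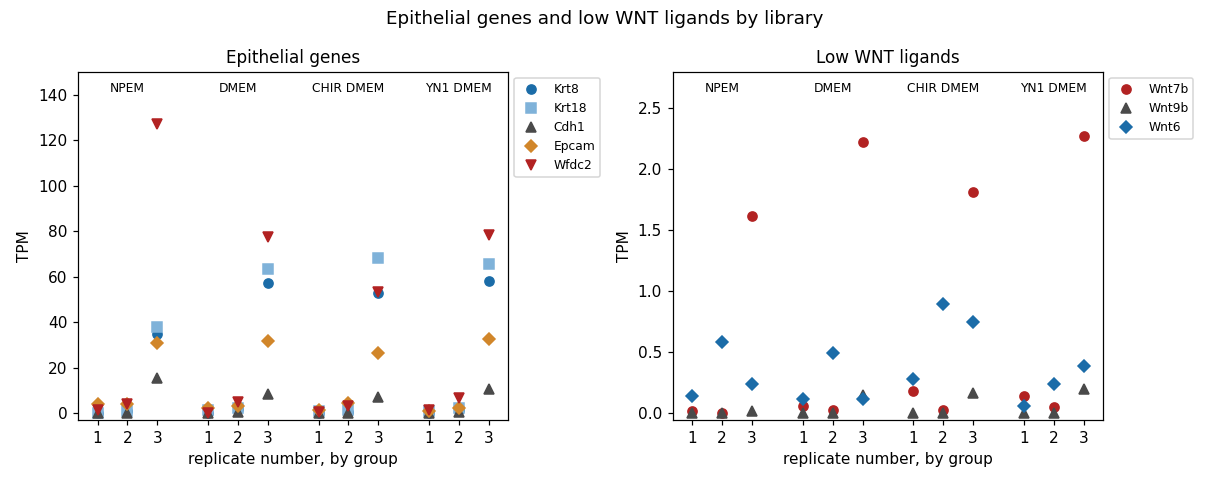
TPM (y axes, linear) of 5 epithelial genes (left) and of Wnt7b, Wnt9b and Wnt6 (right) in each library (x axes, replicate number by group). The 4 replicate 3 libraries held 34.7 to 58.3 TPM of Krt8 and 1.62 to 2.27 TPM of Wnt7b, and the other 8 no more than 1.75 and 0.177 TPM.

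Of the 11 other WNT ligands, 7 were below 1 TPM in all 12 libraries, and Wnt3a was listed at 0 in each. Wnt9a reached 1 TPM in 9 libraries, all those outside NPEM, at 1.04 to 2.29 TPM, against 0.234 to 0.631 TPM in NPEM. Its LogFC against NPEM was 0.75 in DMEM, 0.91 in CHIR DMEM and 0.81 in YN1 DMEM, with adjusted p of 0.258, 0.297 and 0.246. Wnt16 reached 1 TPM in 3 libraries, DMEM replicate 2 (4.82 TPM), YN1 DMEM replicate 2 (3.90 TPM) and YN1 DMEM replicate 3 (1.11 TPM).

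Of the 12 or 13 genes tested that secrete or handle WNT ligands and the 14 that receive them, limma called 0 without the block in all 6 comparisons, and at an unadjusted p under 0.05 it found 0 to 2 and 0 to 4 a comparison. Wls, the carrier, lay at 102 to 221 TPM and Porcn, the acyltransferase, at 3.87 to 11.3 TPM over the 12 libraries. Of 13 genes of secretion and extracellular handling tested in CHIR DMEM against DMEM, 2 had an unadjusted p under 0.05 and were called with the block, 1 in each direction, a share near the 12.8% of all genes called there with the block. These were Notum, which removes the lipid from WNT proteins (LogFC = 2.41, SE 0.61, adjusted p = 0.121, with the block 0.0381), and the glypican Gpc6 (LogFC = -1.14, SE 0.36, adjusted p = 0.171, with the block 0.0189). Notum lay at 2.11, 3.83 and 16.1 TPM in CHIR DMEM and below 1 TPM in the other 9 libraries, so it passed the filter through its CHIR libraries alone, and without the filter its adjusted p was 0.278, and 0.154 with the block.

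Of 14 receptors and co-receptors tested in CHIR DMEM against DMEM, 4 had an unadjusted p under 0.05, of which 3 were lower, and 2 were called with the block, both lower, where 9.44% of all genes were called lower and 12.8% in either direction. The share of receptors called was thus near that of all genes. The co-receptor Lrp6 lay at 62.4, 77.2 and 52.4 TPM in DMEM and at 31.9, 38.9 and 28.4 TPM in CHIR DMEM (LogFC = -0.93, SE 0.19, adjusted p = 0.0917, with the block 0.0195). The receptor Fzd4 lay at 36.4, 87.2 and 39.9 TPM in DMEM and at 13.8, 30.3 and 13.3 TPM in CHIR DMEM (LogFC = -1.45, SE 0.43, adjusted p = 0.151, with the block 0.0157). For both genes no CHIR DMEM library reached the lowest DMEM library. Ror1, a receptor for Wnt5a, lay at 7.62, 11.1 and 4.49 TPM in NPEM and at 18.1, 35.3 and 21.5 TPM in CHIR DMEM (LogFC = 1.59, SE 0.37, adjusted p = 0.151, with the block 0.0469). Ror2, the other receptor of that kind, lay between 34.5 and 92.0 TPM over the 12 libraries. In DMEM against NPEM, with the block, Fzd4 was called higher (LogFC = 0.72, adjusted p = 0.0489).

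Among the R-spondins, which raise WNT receptor levels, and the proteins they act through, 5 of 9 genes were tested in CHIR DMEM against DMEM, with 0 called without the block and 2 at an unadjusted p under 0.05. With the block, 1 was called higher and 2 lower, beside 3.36% and 9.44% of all genes. Rspo3 lay at 6.90, 20.9 and 5.36 TPM in DMEM and at 0.732, 1.44 and 1.16 TPM in CHIR DMEM (LogFC = -2.31, SE 0.48, adjusted p = 0.0917, with the block 0.0293). Znrf3, a ubiquitin ligase that removes Frizzled receptors, gave LogFC = 0.83 (with the block adjusted p = 0.0454), and the R-spondin receptor Lgr4 gave -0.65 (with the block 0.0456). Rspo3, like Wnt2b, was lower in every CHIR DMEM library than in any DMEM library.

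Target genes of β-catenin were read beside the ligands. Of 11 tested in CHIR DMEM against DMEM, 1 was called higher and 0 lower, beside 0.252% of all genes in either direction. With the block 7 were called higher and 2 lower, beside 3.36% and 9.44% of all genes. Among these, Notum passed the filter through its CHIR DMEM libraries alone and Dkk1 through its DMEM libraries alone. The median LogFC of the 11 was 0.86 beside -0.15 over all genes. The gene called without the block was Tcf7, a TCF/LEF factor, at 7.97, 10.3 and 13.03 TPM in DMEM and 34.5, 40.2 and 47.7 TPM in CHIR DMEM (LogFC = 1.88, SE 0.23, adjusted p = 0.0466, and 0.144 without the filter). Axin2, a feedback inhibitor, lay at 1.14, 2.82 and 4.12 TPM in DMEM and at 17.5, 19.7 and 34.9 TPM in CHIR DMEM (LogFC = 2.79, SE 0.41, adjusted p = 0.0649, with the block 0.0128). The 2 called lower with the block in CHIR DMEM against DMEM were Bmp4 and Dkk1, a secreted antagonist of Lrp6. Bmp4 lay at 165, 86.1 and 106 TPM in DMEM and at 98.2, 58.9 and 76.6 TPM in CHIR DMEM. Its LogFC without the block was -0.58 (SE 0.28, adjusted p = 0.319). Dkk1 fell in CHIR DMEM against NPEM (LogFC = -5.54, SE 0.46, adjusted p = 0.0110). It lay at 38.2, 144 and 69.9 TPM in NPEM and at 0.800, 0.687 and 0.316 TPM in CHIR DMEM. Between these were DMEM, at 9.84, 19.2 and 2.69 TPM, and YN1 DMEM, at 6.32, 18.9 and 1.80 TPM. LogFC was -2.99 in DMEM against NPEM (adjusted p = 0.122) and -2.55 in CHIR DMEM against DMEM (adjusted p = 0.111). Both were called lower with the block. Dkk1 was the 1 target of 12 called in CHIR DMEM against NPEM, beside 0.378% of all genes. With the block 2 were called there, 1 in each direction, beside 1.66% of all genes. Dkk1 passed the filter in that comparison through its NPEM libraries alone. Without the filter its adjusted p there was 0.0719, and 0.226 with the block. Limma called 1 target of 11 in DMEM and in YN1 DMEM against NPEM, beside 0.446% and 0.230% of all genes. In DMEM, LogFC was below 0 for 9 of the 11 and above 0 for 2, with a median of -0.88 beside 0.09 over all genes. In YN1 DMEM it was below 0 for 8 and above 0 for 3, with a median of -1.04 beside 0.09. With the block 3 were called in DMEM against NPEM, all lower, beside 6.50% of all genes. The target called in each without the block was Myc, and it fell in both. In DMEM its LogFC was -1.16 (SE 0.14, adjusted p = 0.0316), and in YN1 DMEM -1.20 (SE 0.15, adjusted p = 0.0481). Without the filter the adjusted p of Myc was 0.121 and 0.193. In YN1 DMEM against DMEM 0 of 10 targets were called, also at an unadjusted p under 0.05.

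The genes whose pattern came nearest to Wnt4 and Wnt2b over the 12 libraries were found by the root mean square difference of log2(TPM + 1), each gene centred on its own mean, among 12500 genes. For Wnt4 they were Emilin2, an extracellular matrix glycoprotein (difference 0.92), the leptin receptor Lepr (1.07), the activin antagonist Fst (1.07), the matrix protein Smoc2 (1.22) and the transcription factor Runx1 (1.30). The deviation of Wnt4 from its own mean was 2.30 on that scale. Emilin2 had means of 1.04, 3.20, 69.7 and 3.17 TPM in NPEM, DMEM, CHIR DMEM and YN1 DMEM, and Fst had 1.09, 8.38, 39.6 and 9.58 TPM. For Wnt2b, which deviated by 1.93, they were Itih2, a serum protein that binds hyaluronan (0.66), the peptide hormone gene Cck (0.80), the neurotrophin receptor Ntrk2 (0.83), the chemokine receptor Ackr3 (0.84) and the adrenergic receptor Adra1a (0.86). Itih2 had means of 0.780, 19.5, 3.04 and 18.9 TPM in the same order, and Ackr3 had 2.32, 38.0, 7.16 and 35.3 TPM. The 5 genes near Wnt4 were highest with CHIR, and the 5 near Wnt2b were highest in DMEM or YN1 DMEM and lower with CHIR. They were chosen for their likeness over these same libraries, so the shared pattern follows from the choice and is no separate result.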

How the data were processed

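Bulk RNA of 12 NPC libraries, 3 in each of 4 groups, was sequenced after poly-A selection without strand information. The authors checked reads with FastQC, aligned them with STAR to mm9 and mm10, ran RSEM, and deposited TPM values from Kallisto collapsed to genes; versions and the annotation are not given in the sources used here. Each deposited TPM column was matched to its library by title, and an unnumbered title was taken as replicate 1. The NPEM columns recur in all 3 tables with identical values. Columns of the authors' own comparisons (fold changes, p-values) were not used. TPM keeps no depth, so the precision of each value rests on 3 libraries.

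Comparisons were made with limma 3.58.1 in R 4.3.3 (moderated test with an intensity trend) on log2(TPM + 1), over genes that reached 1 TPM in 3 or more of the 6 libraries, adjusted by Benjamini-Hochberg over all genes tested and called at an adjusted p under 0.05. The 6 comparisons share libraries. Code was tested on simulated data. The study describes the libraries as independent NPC preparations, and no block was in its methods. The replicate numbers in the titles paired the libraries: same-numbered libraries of different groups correlated at 0.35 to 0.69 in their deviations from the group means over 15680 genes, and differently numbered ones at -0.45 to -0.07. The 3 deviations of a group sum to 0 for each gene. Values below 0 in the second range thus largely follow from the first and are no separate evidence of pairing. Alternatives were quantile normalization, no filter, a mean of at least 5 TPM, a pseudocount of 0.1 TPM, all 4 groups in 1 fit, the replicate block, no trend, and leaving out each library, which was done for the ligands only. Leaving out 1 replicate number from both groups, and the fits of list genes without a filter, were added after seeing the data.

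Named genes were the members, other WNT ligands at 1 TPM or more in at least 3 libraries, called genes or at most 4 with the smallest unadjusted p in each pathway list, and the 5 nearest genes of each called member, without predicted genes, small RNAs and pseudogenes. Levels of Wls, Porcn, Ror2, Wnt3a and marker genes were named after their values were seen. Members and lists were chosen with earlier results of these data known. Promoters and gene positions are from RefSeq on GRCm38. The labels give reads of another length than the methods.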

Additional observations from a re-analysis of the deposited data

How the results depend on the processing

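Without a filter on low values, 0 ligands were called higher in CHIR DMEM, YN1 DMEM or DMEM against NPEM. With the replicate block, 1 ligand (Wnt5b) was called lower in DMEM against NPEM, and 1 higher (Wnt4) and 1 lower (Wnt2b) in CHIR DMEM against DMEM and against YN1 DMEM; it changed no other count of calls. All 4 groups in 1 fit gave those same calls in the last 2 comparisons, with or without the block, and 1 lower (Wnt5b) in YN1 DMEM against NPEM. All 4 groups with the block gave 2 higher (Wnt2b and Wnt4) in CHIR DMEM, YN1 DMEM and DMEM against NPEM, and 2 lower (Wnt5b and Wnt11) in the last 2 of these. A setting can change the calls over all genes too: the block alone took them from 0.252% to 12.8% in CHIR DMEM against DMEM. That share is not given here for all 4 groups in 1 fit, quantile normalization or libraries left out. Those counts therefore cannot be read as a result about the ligands. Quantile normalization gave 1 lower (Wnt5b) in DMEM against NPEM and turned Wnt5a in YN1 DMEM against NPEM to -0.014. With libraries left out, 0 to 1 ligands were called higher in each comparison with NPEM and 0 to 1 lower in CHIR DMEM against NPEM. LogFC changed sign with 1 library left out for Wnt5a against NPEM in CHIR DMEM (-0.89 to 0.13), DMEM (-0.23 to 0.66) and YN1 DMEM (-0.25 to 0.64). In YN1 DMEM against DMEM it did so for Wnt5a (-0.28 to 0.25), Wnt11 (-0.39 to 0.082), Wnt2b (-0.18 to 0.63) and Wnt4 (-0.55 to 0.95), and in CHIR DMEM against DMEM for Wnt11 (-0.071 to 0.34) and Wnt5b (-0.052 to 0.54). Without replicate 2 of both groups, Wnt5a turned to -0.21 in YN1 DMEM against NPEM and -0.22 in DMEM against NPEM, and in YN1 DMEM against DMEM Wnt5a and Wnt11 turned to 0.015 and 0.022. Without replicate 1 of both groups, Wnt5a turned to 0.0024 in YN1 DMEM against DMEM. The causes were not tested beyond the number of genes or libraries each setting takes. A pseudocount of 0.1, a mean of at least 5 TPM and limma without trend changed no count of calls. Depth is unknown, so no counting error can be given for levels below 1 TPM.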
